A study of Homo sapiens with 30 samples.

Results

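The replication-dependent histone genes were followed through 30 RNA-seq libraries of hybrid 3D cultures made from PANC-1, a human pancreatic ductal adenocarcinoma cell line. They were chosen by symbol, as H1-1 to H1-5 and every gene named H2AC, H2BC, H3C or H4C with a digit, and 13 pseudogenes that match these names were left out. This gave 69 of 60483 gene records, with 5 H1, 17 H2A, 19 H2B, 13 H3 and 15 H4 genes. Of these, 54 lie on chromosome 6, 13 on chromosome 1, and 1 each on chromosomes 12 and 21.

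Tumoroids of PANC-1 cells were assembled with droplet-supported lipid bilayers (DSLBs), oil droplets wrapped in a lipid membrane that act as synthetic cells and can carry recombinant immune proteins. In 7 groups the DSLBs presented the checkpoint receptor PD-1 and a co-ligand, which was TIGIT, LAG3, ICOS, CTLA4, CD40L, CD27 or CD2. In a further group they presented PD-1 alone. The negative controls were hybrids with plain DSLBs, which carried no protein, and DSLB-free tumoroids. Each of the 10 groups had 3 libraries, prepared from 150 ng of total RNA and named in the methods as parallel biological replicates. All groups share the same tumour line, and the immune partner is a protein on a droplet rather than a living immune cell.

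Histones of this class package newly copied DNA: H2A, H2B, H3 and H4 form the nucleosome core and H1 binds the linker. Their genes sit in clusters and are transcribed mainly in S phase, with NPAT, a target of cyclin E and CDK2, as coactivator. Most of their mRNAs have no introns and no poly(A) tail and end instead just after a stem-loop, which SLBP binds and the U7 particle helps to cut. When DNA synthesis stops they are degraded rapidly, with UPF1 and terminal uridylation taking part, and some of the genes can also give longer, polyadenylated transcripts.

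The stem-loop is shown because it is the feature that sets these mRNAs apart, and it was present in 68 of the 69 genes. It was searched in the 3′ UTR, within 150 bases after the stop codon in hg38, as 6 paired bases around a loop of 4, and lay 22 to 67 bases after the stop codon (median 35). In the sequences below, printed 5′ to 3′ on the mRNA strand, capitals mark both arms of the stem.
H1-2, chr6:26055744-26055759, minus strand: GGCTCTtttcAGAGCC
H3C4, chr6:26196789-26196804, minus strand: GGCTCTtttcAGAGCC
H2BC12, chr6:27146366-27146381, minus strand: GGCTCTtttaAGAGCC
H4C8, chr6:26285131-26285146, minus strand: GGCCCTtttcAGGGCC
H2AC11, chr6:27133515-27133530, plus strand: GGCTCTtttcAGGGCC
H2AC15, chr6:27837885-27837900, minus strand: GGTTCTtttcAGAGCC

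The form of H1-2 and H3C4 was the commonest, with 4 of 5 H1, 13 of 17 H2A, 12 of 19 H2B and 11 of 13 H3 genes. All 15 H4 genes instead had the stem GGCCCT, as H4C8 does. The stem paired fully in 66 genes, while H2AC11 and H2AC15 each had 1 pair that did not match. The gene without a stem-loop was H2BC12L on chromosome 21. In 46 genes the annotated transcripts ended near the stem-loop, and in 22 a longer form was annotated, reaching over 100 bases past it or over 300 bases beyond the coding length.

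A second sequence feature is the octamer ATTTGCAT, a binding motif of the factor OCT1 (POU2F1) that is well known from H2B promoters. Among the 63 genes matched to a RefSeq promoter (GRCh38.p14, 250 bases before to 50 after the start, both strands), 26 held it, or 41.3%, against 1.80% of 27305 promoters. It was found in 14 of 18 H2B and 11 of 16 H2A promoters, in 1 of 11 H3 and in none of 5 H1 and 13 H4 promoters. The TATA box, searched as TATAAA, was in 66.7% of these histone promoters and in 12% of all. CCAAT was in 84.1% of the histone promoters, but in 3 of the 13 H4 promoters, against 35.7% of all. Such matches are descriptions of the window and not evidence of binding.

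Of the octamers, 8 lay between an H2A and an H2B gene that point away from each other, so that 16 genes shared a site with a partner. The sites below are shown because the levels of these partners are compared later. They are read in the direction of the H2B gene, with the octamer in capitals.
H2BC7 and H2AC7, chr6:26199397-26199420, plus strand: atcacctaATTTGCATaccacagg
H2BC8 and H2AC8, chr6:26216721-26216744, minus strand: aattctttATTTGCATgaaaggcc
H2BC4 and H2AC6, chr6:26124034-26124057, minus strand: catacctcATTTGCATagctctgc
H2BC11 and H2AC11, chr6:27132827-27132850, minus strand: ttcaccttATTTGCATaagcgatt
H2BC21 and H2AC20, chr1:149886713-149886736, minus strand: gagccctaATTTGCATaaggtggt

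The libraries held between 21903971 and 60506800 expected counts (median 40603295). The 69 genes took 7023 to 21995 of them, or 0.0299% to 0.0396% of a library. The keratins KRT8, KRT18 and KRT19 had median levels of 3162, 1508 and 1289 TPM. Of the T and B cell markers, CD3E, CD3D, CD4 and MS4A1 had a median of 0 TPM and CD8A one of 0.87 TPM (0.54 to 1.22). The 11 immune markers together reached 1.85 to 3.54 TPM in PD-1 libraries and 1.66 to 2.35 TPM in control libraries. Of the 4 tested, CD14 was called higher in PD-1 against plain DSLB (log2 fold change 1.09 ± 0.25, SE), and CD14 (1.01 ± 0.14), ITGAM (0.51 ± 0.14) and CD8A (0.26 ± 0.11, adjusted p = 0.043) were called higher in the 8 PD-1 groups against both controls.

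The summed levels of 2 other marker lists separated the PD-1 libraries from the controls. The 9 fibroblast and endothelial markers, nearly all of whose level came from COL1A1, summed to 133 to 252 TPM in the 24 PD-1 libraries and 305 to 409 TPM in the 6 controls, without overlap. Of the 5 tested, COL3A1 (-1.35 ± 0.13) and COL1A1 (-0.57 ± 0.14) fell in PD-1 against plain DSLB. The same pair fell and PDGFRB rose (0.47 ± 0.18) in the 8 PD-1 groups against both controls. The fibroblast markers COL1A2, DCN, LUM and PDGFRB had medians of only 0.05, 0.115, 0.415 and 0.49 TPM. The endothelial markers PECAM1 and VWF had medians of 0 and 0.005 TPM. The 10 epithelial and PANC-1 markers summed to 8547 to 9401 TPM in the PD-1 libraries and 6765 to 7704 TPM in the controls, also without overlap. Nearly all of this level came from KRT8, KRT18, KRT19 and VIM. VIM, which is not an epithelial marker, had 3550, 3688 and 3429 CPM in the libraries with PD-1 alone, against 2662, 2586 and 2586 CPM in the plain ones. Of the 9 tested, 2 fell and 4 rose in PD-1 against plain DSLB, with CDH1 at -0.73 ± 0.07 and KRT19 at 0.90 ± 0.11, and 4 fell and 5 rose against both controls. The part of these markers in the histone values was not tested. Replicate 3 of PD-1/LAG3, replicate 2 of DSLB-free, replicate 1 of PD-1 and replicate 2 of PD-1/CTLA4 stood apart from the others of their groups. The counts of changed histone genes without these 4 libraries are given beside the main ones.

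A few genes carried most of the histone signal. TPM is scaled by gene length and can be compared between genes, and 10 of the 69 had a median of at least 10 TPM over the 30 libraries, while 39 were under 1 TPM and 3 (H2AC1, H2BC1 and H4C7) had no count in any library. The highest was H2BC12, with a median of 196 TPM (166 to 230). It was followed by H2BC5 with 127 TPM (96.5 to 166), H2AC18 with 95.3 TPM (59.8 to 175), H2AC6 with 63.6 TPM (52.2 to 74.5) and H1-2 with 54.8 TPM (46 to 104). The ranges of neighbours in this order overlap, though those of H2BC12 and H2BC5 barely do.

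The families differed in how many genes were detected. H1-2, a linker histone, was the only H1 gene with a substantial level, since H1-4 and H1-5 had medians of 0.105 and 0.04 TPM and no H1 gene other than H1-2 passed the filter on low counts. Of the H3 genes the leading ones were H3C4 at 8.04 TPM, H3C6 at 5.04 TPM and H3C10 at 5.03 TPM. H4C14, H4C15 and H4C8 led the H4 genes at 27.2, 8.41 and 7.07 TPM. H2BC12L and H2AC19, which complete the leading trios of the H2B and H2A families, had 36.4 and 12.5 TPM. Several replacement variants, which are also made outside S phase and carry poly(A) tails, had higher levels than most of these genes, with medians of 714 TPM for H3-3B, 530 TPM for H3-3A and 275 TPM for H2AZ1. TPM depends on the length used: in 39 of the 69 genes the files' length was that of the coding sequence alone, H2BC12 with 381 bases among them.

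**Figure D1:**
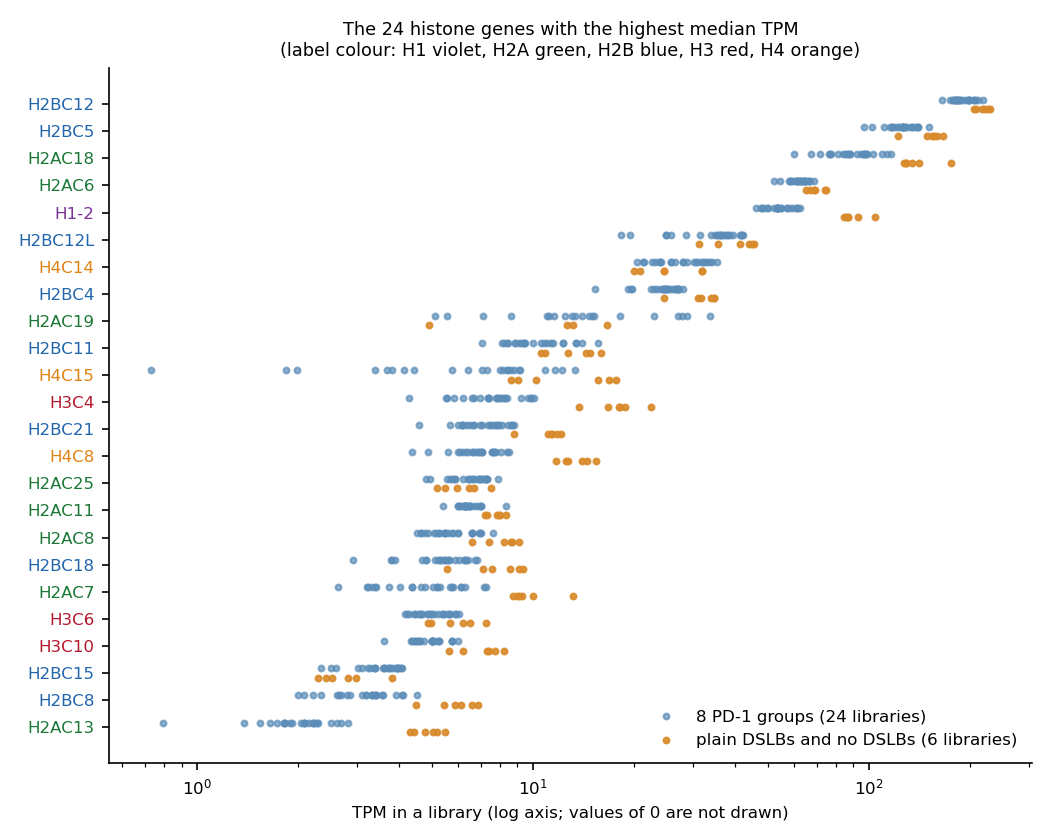
TPM of the 24 histone genes with the highest median, on a log axis, with 1 point for each of the 24 libraries of the 8 PD-1 groups (blue, above) and the 6 control libraries (orange, below) in each row. Values reach from over 100 TPM for H2BC12 and H2BC5 to under 10 TPM for most of the genes, and H1-2 and H3C4 show control points to the right of the PD-1 points.

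Some neighbouring values are uncertain because RSEM shares reads between near-identical copies. H4C14 took between 31.4% and 98.6% of the counts of the pair H4C14 and H4C15 in different libraries, but their sum was steady, at 21.3, 24.3 and 28.0 CPM (expected counts scaled for library size and composition) as lowest, median and highest of the 24 PD-1 libraries, against 23.9, 24.6 and 25.2 CPM in the 6 controls. H2AC18 took 66.9% to 100% of the pair H2AC18 and H2AC19, and H3C14 and H3C15 had identical counts in every library. The values of overlapping genes are uncertain as well. H3C12 and H2AC17 overlap on the same strand. H2BC4 and H4C3 lie on opposite strands, and although the library kit keeps strand, the strand setting of the counting is not given in the sources used here.

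Differences were tested by quasi-likelihood in edgeR, in a model of all 30 libraries, with p-values adjusted by Benjamini-Hochberg over the 18424 genes that passed the filter and a threshold of 0.05. Of the 69 histone genes 41 passed that filter (1 H1, 10 H2A, 11 H2B, 9 H3 and 10 H4), and the 28 others never reached more than 12.1 counts in a library. Genes whose transcripts end near the stem-loop passed in 20 of 46 cases and those with a longer annotated form in 20 of 22.

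Across the 10 groups, 13 of the 41 tested genes differed, beside 41% of all genes tested (12 of the 13 under a model with replicate number, and 14 genes without the 4 libraries). Over all genes, 7757 of 18424 differed with replicate number and 9176 of 18573 without the 4 libraries. By adjusted p the leading ones were H1-2 (4.5e-06), H2BC21 (5.2e-06), H4C8 (1.2e-05), H3C4 (1.4e-05) and H2AC13 (2.9e-05), followed by H2BC18, H2BC8, H2AC7, H3C10, H2AC18, H3C13, H2BC11 and H2AC25. Calls of 3 of them depended on single libraries: H2AC25 (adjusted p = 0.040) was lost under most alternatives, H3C13 (0.017) without replicate 2 of DSLB-free (0.068), and H2BC11 (0.027) without replicate 1 of PD-1/CD27 (0.053) or replicate 2 or 3 of plain DSLB (0.068 and 0.076). The other 10 kept their calls under every alternative tried.

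PD-1 DSLBs were first set against plain DSLBs, which carried no protein. No group carried a protein without PD-1, so PD-1 itself and the coupling of any protein cannot be told apart here. In this comparison 8 of the 41 genes fell and none rose: H1-2, H2AC13, H2BC8, H2BC18, H2BC21, H2BC26, H3C4 and H4C8. In hg38, H1-2 (ENSG00000187837.3) lies at chr6:26055740-26056470, H3C4 (ENSG00000197409.7) at chr6:26196784-26197286, H2AC13 (ENSG00000196747.4) at chr6:27808173-27808667 and H2BC21 (ENSG00000184678.9) at chr1:149884459-149886682, each with 1 unspliced transcript annotated. H4C8 (ENSG00000158406.3) lies at chr6:26277609-26285638, with 3 transcripts of which 2 are spliced. Over all genes tested, 10.7% fell and 11.3% rose, or 22% in all. The median log2 fold change of the 41 genes was -0.37, beside -0.00 for all genes, and 36 of the 41 had a value below 0. In 19 of them every PD-1 library was below every plain library, and in none was every one above, beside 23.5% and 23.4% of all genes.

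H1-2 had 24.9, 20.9 and 21.6 CPM in the PD-1 libraries, against 31.4, 30.7 and 31.8 CPM in the plain DSLB libraries. All PD-1 values lay below all plain values, and the log2 fold change was -0.48 ± 0.11 (SE, adjusted p = 0.0029). Among core histones, H2BC21 had 8.39, 8.81 and 8.29 CPM in the PD-1 libraries, against 13, 12.7 and 12.9 CPM in the plain ones. Its groups were far apart for their spread, with a log2 fold change of -0.60 ± 0.09 (SE, adjusted p = 1.5e-05), the smallest p of the 41 genes.

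Larger fold changes were seen in genes of lower level. H3C4, an H3 gene, had 1.5, 1.82 and 2.16 CPM in the PD-1 libraries, against 3.6, 3.90 and 4.08 CPM in the plain ones, or -1.08 ± 0.23 (log2, SE, adjusted p = 0.0011). H2AC13 had 0.425, 0.538 and 0.667 CPM with PD-1 DSLBs, against 1.21, 1.18 and 1.39 CPM with plain DSLBs, or -1.22 ± 0.25 (adjusted p = 7.1e-04). In both genes the groups did not overlap. H4C8, an H4 gene, had 1.52, 1.48 and 1.72 CPM in the PD-1 libraries, against 2.41, 2.90 and 3.20 CPM in the plain ones, or -0.85 ± 0.17 (adjusted p = 6.7e-04). H2BC8 had 0.825, 1.5 and 0.846 CPM with PD-1 DSLBs, against 1.91, 2.34 and 2.17 CPM with plain DSLBs, or -0.99 ± 0.23 (adjusted p = 0.0023).

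The other H2B genes called were less uniform. H2BC18 had 4.89, 5.69 and 6.47 CPM in the PD-1 libraries, against 10.5, 10.2 and 8.48 CPM in the plain ones, or -0.78 ± 0.15 (adjusted p = 5.3e-04). H2BC26 had 0.1, 0.405 and 0.639 CPM with PD-1 DSLBs, against 0.795, 0.670 and 0.821 CPM with plain DSLBs, or -1 ± 0.35 (adjusted p = 0.040). Its call rests on few reads and on single libraries: without replicate 1 of PD-1 its log2 fold change was -0.58 (adjusted p = 0.20), and the call was also lost without replicate 2 of PD-1 or any 1 of the plain libraries. The 7 other genes kept their calls under every alternative tried, and without the 4 libraries that stood apart 8 genes were called, 7 of them shared with the full set. Over all genes, 3917 of 18573 were called without these 4 libraries.

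Several of the most abundant genes did not pass the test. H2AC6 had 69.2, 65.4 and 69.6 CPM in the PD-1 libraries, against 68.0, 74.3 and 68.9 CPM in the plain ones, which overlap (log2 fold change -0.05 ± 0.06, adjusted p = 0.62). H2BC12 had 39.3, 38.5 and 38.0 CPM with PD-1 DSLBs, against 40.4, 42.7 and 43.8 CPM with plain DSLBs (-0.13 ± 0.10, adjusted p = 0.38). H2BC5 stood close to the threshold, with 59.2, 60.3 and 62.1 CPM in the PD-1 libraries, against 67.3, 72.5 and 75.9 CPM in the plain ones (-0.25 ± 0.09, adjusted p = 0.053). For H2AC18 the values were 35.1, 31.6 and 28.6 CPM with PD-1 DSLBs and 40.8, 39.2 and 43.2 CPM with plain DSLBs (-0.37 ± 0.19, adjusted p = 0.17).

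**Figure D2:**
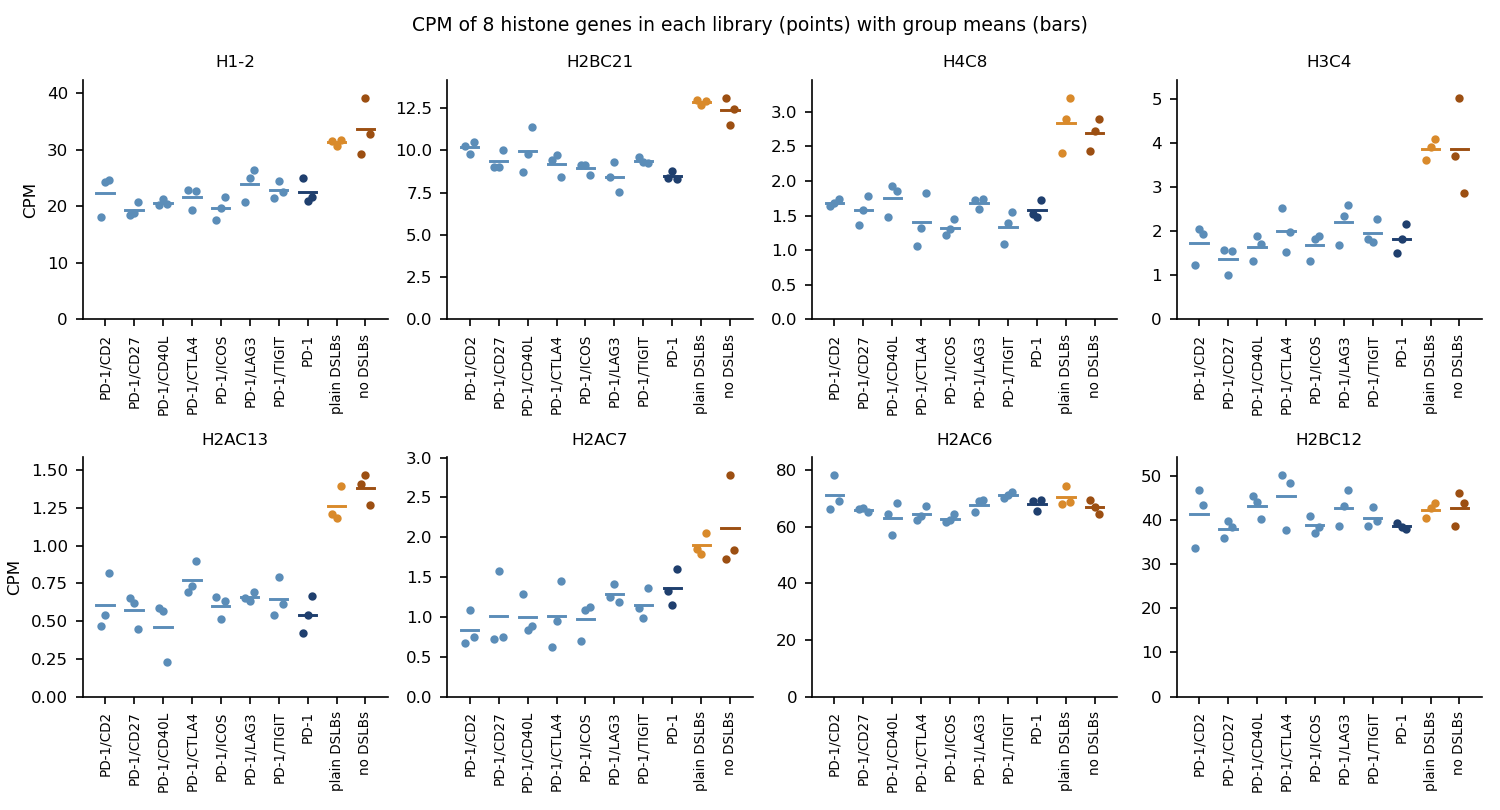
CPM of 8 histone genes in each library (points, 3 per group) with the group mean (bar), from the 7 co-ligand groups on the left through PD-1 to plain DSLBs and DSLB-free tumoroids on the right. H1-2, H2BC21, H4C8, H3C4 and H2AC13 have all 24 PD-1 libraries below all 6 controls, whereas the points of H2AC6 overlap.

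The plain DSLBs themselves were set against DSLB-free tumoroids, which asks whether the droplet alone mattered. None of the 41 genes passed with edgeR or with DESeq2, 2 had an unadjusted p under 0.05 in edgeR (H2AC17 and H2BC11, both higher with plain DSLBs), and 0.0109% of all genes were called. An unadjusted p under 0.05 was found in edgeR for 1123 of all 18424 genes. The median log2 fold change was 0.06, beside 0.00 for all genes. In 4 of the 41 genes all plain libraries were above all DSLB-free ones and in 0 all were below, beside 6.91% and 4.42% of all genes. H1-2 had 31.4, 30.7 and 31.8 CPM with plain DSLBs, against 29.1, 39.1 and 32.7 CPM without DSLBs. H2BC21 had 13, 12.7 and 12.9 CPM with plain DSLBs, against 13.1, 11.5 and 12.5 CPM without DSLBs, so in both genes the control groups overlap.

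The co-ligand groups were each compared with PD-1 alone, and these 7 comparisons share the same 3 PD-1 libraries. In none of them did a histone gene pass with edgeR. The share of all genes called was 1.23% for PD-1/CD2, 2.29% for PD-1/CD27, 0.0109% for PD-1/CD40L, 0.0434% for PD-1/CTLA4 and 0 for the ICOS, LAG3 and TIGIT groups. For PD-1/CD2 it was 0.499% lower and 0.733% higher, and for PD-1/CD27 it was 0.233% lower and 2.05% higher. Unadjusted p-values under 0.05 were found for 6 genes in CD27, 4 each in CD2, CD40L and CTLA4, 2 in ICOS and 0 each in LAG3 and TIGIT. Over all 18424 genes these counts were 3134 for CD27, 2833 for CD2, 2091 for CD40L and 2445 for CTLA4. They were 1880 for ICOS, 1052 for LAG3 and 681 for TIGIT. DESeq2 on all libraries called 1 gene for CD27, beside 783 of 18424 genes, and none in the 6 other comparisons. The median log2 fold changes of the 41 genes lay between -0.04 for CD27 and 0.07 for TIGIT.

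Among the 41 histone genes, those whose co-ligand libraries lay wholly to 1 side of the 3 PD-1 libraries were counted. These counts are a description and were not tested against the shares of all genes. For CD2 there was 1 below and 1 above, beside 8.1% and 8.11% of all genes, and for CD27 there were 4 below and 4 above, beside 13.4% and 13.5%. For CD40L there were 3 below and 4 above, beside 11% and 8.9%, and for CTLA4 1 below and 1 above, beside 8.6% and 9.21%. ICOS had 5 below and 1 above, beside 14.1% and 12.6%, and TIGIT had 0 below and 4 above, beside 6.77% and 6.25%. In LAG3 the libraries of all 41 genes overlapped, beside 5.89% of all genes below and 6.14% above.

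The smallest p among these comparisons belonged to H2BC18 in PD-1/CD27. It had 7.67, 8.70 and 7.95 CPM in the PD-1/CD27 libraries, against 4.89, 5.69 and 6.47 CPM in the PD-1 libraries, or 0.51 ± 0.15 (log2, SE, adjusted p = 0.071 with edgeR). The groups did not overlap, but the gene missed the threshold. H2BC11 had 2.37, 2.54 and 2.74 CPM in the PD-1/CD27 libraries, against 3.18, 3.68 and 3.47 CPM with PD-1 alone (-0.44 ± 0.17, adjusted p = 0.18). Both were chosen here after their values were seen. In a test of any difference among the 8 PD-1 groups, added after the data had been seen, none of the 41 genes passed in edgeR (3 with an unadjusted p under 0.05, 1 gene by DESeq2), beside 2.88% of all genes. Over all 18424 genes, 4181 had an unadjusted p under 0.05 in edgeR, and DESeq2 called 2413.

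To use all groups at once, the 24 PD-1 libraries were also set against the 6 controls in the same model. This comparison was added after the data had been seen and is not independent of the preceding ones, with which it shares libraries. PD-1 and the coupling of any protein cannot be told apart in it either. In it 23 of the 41 genes were called, 20 lower and 3 higher, beside 50.4% of all genes, 24.5% lower and 25.9% higher. The median log2 fold change was -0.39, beside 0.01 for all genes. In 6 genes (H1-2, H2BC21, H4C8, H3C4, H2AC13 and H2AC7) all 24 PD-1 libraries were below all 6 controls, and in none were all above, beside 5.11% and 4.43% of all genes.

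H1-2 ranged over 17.6, 21.3 and 26.4 CPM (lowest, median and highest) in the PD-1 libraries and over 29.1, 31.6 and 39.1 CPM in the controls, a log2 fold change of -0.59 ± 0.06 (adjusted p = 5.0e-09). For H2BC21 these were 7.55, 9.20 and 11.4 CPM in the PD-1 libraries and 11.5, 12.8 and 13.1 CPM in the controls (-0.45 ± 0.05, adjusted p = 8.1e-09). The separation of H1-2 was thus wider than that of H2BC21, whose highest PD-1 value came near the lowest control. H3C4 had 0.997, 1.82 and 2.60 CPM in the PD-1 libraries and 2.86, 3.80 and 5.02 CPM in the controls (-1.11 ± 0.12, adjusted p = 1.2e-08). H4C8 had 1.05, 1.57 and 1.93 CPM with PD-1 and 2.41, 2.81 and 3.20 CPM in the controls (-0.85 ± 0.09, adjusted p = 1.1e-08).

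By group, H1-2 averaged 22.3 ± 3.7 CPM in PD-1/CD2, 19.3 ± 1.3 in PD-1/CD27, 20.6 ± 0.56 in PD-1/CD40L, 21.6 ± 1.9 in PD-1/CTLA4, 19.6 ± 2.1 in PD-1/ICOS, 24 ± 3.0 in PD-1/LAG3, 22.9 ± 1.5 in PD-1/TIGIT and 22.5 ± 2.1 in PD-1, and 31.3 ± 0.56 in plain DSLB and 33.6 ± 5.1 in DSLB-free (CPM, SD, n = 3 each). The means of the PD-1 groups differ by about as much as their replicates do.

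**Figure D3:**
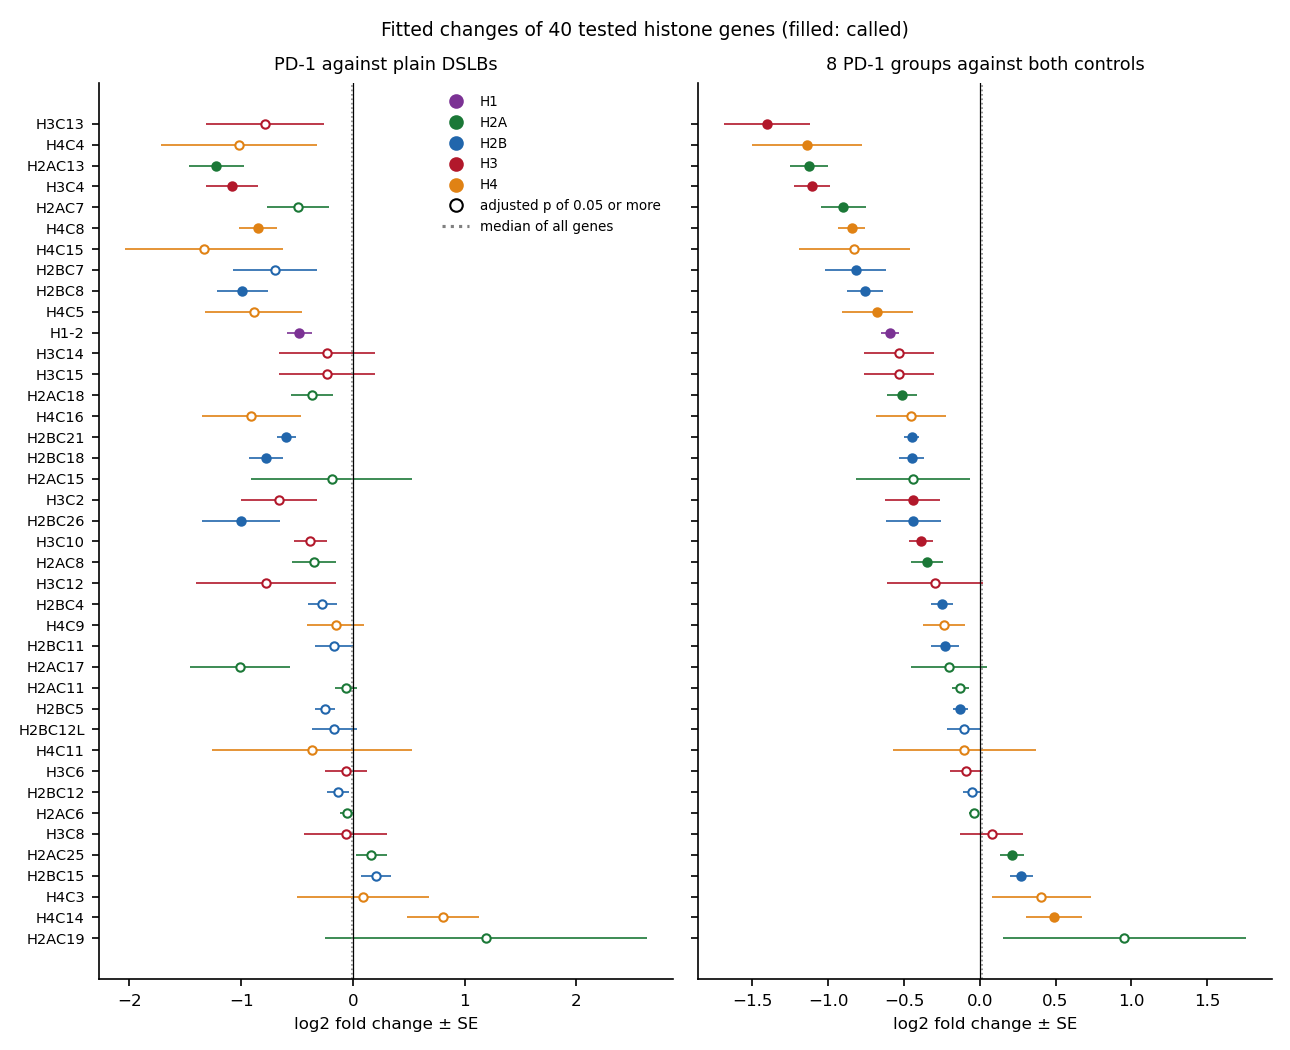
Log2 fold changes with their SE for 40 of the 41 tested histone genes, coloured by family, in PD-1 against plain DSLB and in the 8 PD-1 groups against both controls, with filled points for called genes and a dotted line at the median of all genes. Most points lie left of 0 in both panels, and H4C12, whose SE could not be estimated in the second comparison, is not drawn.

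Among the H2A genes, H2AC7 had 0.625, 1.10 and 1.60 CPM in the PD-1 libraries and 1.72, 1.85 and 2.78 CPM in the controls (-0.90 ± 0.15, adjusted p = 1.2e-05). H2AC18 had 19.4, 30 and 39.1 CPM in the PD-1 libraries and 36.4, 40 and 55.2 CPM in the controls (-0.51 ± 0.10, adjusted p = 1.9e-04). H2AC18 overlaps between the groups and shares reads with H2AC19, but the sum of the pair went the same way, at 28.3, 34.5 and 44.3 CPM in the PD-1 libraries and 40.1, 43.2 and 56.8 CPM in the controls. H2AC6 again did not pass, at 57.0, 66.5 and 78.3 CPM in the PD-1 libraries and 64.4, 68.4 and 74.3 CPM in the controls (-0.04 ± 0.04, adjusted p = 0.39).

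The 3 genes called higher were H2BC15 (log2 fold change 0.27 ± 0.07), H4C14 (0.49 ± 0.19) and H2AC25 (0.21 ± 0.08), all with a longer form annotated. H2BC15 had 2.60, 3.59 and 3.87 CPM in the PD-1 libraries and 2.46, 2.84 and 3.31 CPM in the controls. None of the 3 calls held under every alternative. The sum of H4C14 and H4C15 did not shift as H4C14 did, as given above. With the length trend removed the split was 29 lower and 0 higher, and on log2 TPM it was 28 lower and 1 higher, on a scale where the median of all genes shifted to -0.12. Over all 18424 genes it was 4251 lower and 4355 higher with the length trend removed, and 7044 lower and 2250 higher on log2 TPM.

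Genes whose transcripts end near the stem-loop were compared with those that have a longer form. In PD-1 against plain DSLB, 4 of 20 fell in each class, beside 10.7% of all genes tested, and the median log2 fold changes were -0.58 for genes that end near the stem-loop and -0.23 for those with a longer form. In the 8 PD-1 groups against both controls, 12 of 20 fell and none rose among genes that end near the stem-loop (median -0.48), and 8 fell and 3 rose of 20 with a longer form (median -0.24), beside 24.5% lower and 25.9% higher over all genes. The class that ends near the stem-loop holds most of the genes of low counts, but also the abundant H2BC12, H2AC18 and H1-2. With a median count of 20 or more, 7 of 9 fell in that class (median -0.59), against 8 lower and 3 higher of 16 with a longer form (median -0.23). The difference between the classes was described and not tested.

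Partners at a shared octamer did not always have the same value. H2AC7 and H2BC7, the pair at chr6:26199397-26199420, had log2 fold changes of -0.90 and -0.82 in the 8 PD-1 groups against both controls, and both were called. H2AC8 and H2BC8 were also both called, at -0.35 and -0.76. At the site of H2AC6 and H2BC4, H2AC6 was at -0.04 and not called while H2BC4 was at -0.25 and called (adjusted p = 0.0043). H2AC11 and H2BC11 were at -0.13 (adjusted p = 0.051) and -0.23 (adjusted p = 0.044). H2AC20, the partner of H2BC21, did not pass the filter on low counts. Whether partners differ from each other was not tested.

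The 69 genes were summed as a description. The sum averaged 332 ± 38 CPM in PD-1/CD2, 316 ± 10 in PD-1/CD27, 322 ± 3.2 in PD-1/CD40L, 321 ± 16 in PD-1/CTLA4, 308 ± 8.0 in PD-1/ICOS, 331 ± 17 in PD-1/LAG3, 340 ± 10 in PD-1/TIGIT and 323 ± 4.2 in PD-1, and 378 ± 12 in plain DSLB and 366 ± 10 in DSLB-free (SD, n = 3 each). The 24 PD-1 libraries held 299.7 to 374 CPM (median 321) and the 6 controls 357 to 386 CPM (median 371), so that the groups overlap, replicate 2 of PD-1/CD2 being the highest PD-1 library. By family, H1 summed to 21.7 ± 2.4 CPM in the PD-1 libraries and 32.6 ± 3.5 CPM in the controls, H3 to 8.58 ± 1.0 and 12.4 ± 1.5 CPM, H2B to 147 ± 9.2 and 164 ± 10 CPM, H2A to 118 ± 8.4 and 133 ± 6.8 CPM, and H4 to 28.6 ± 1.8 and 30.4 ± 0.81 CPM, in that order of groups (SD, n = 24 and 6).

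Genes that end near the stem-loop summed to 86.8 to 128 CPM in the PD-1 libraries and 122 to 158 CPM in the controls, and those with a longer form to 195 to 243 CPM in the PD-1 libraries and 211 to 241 CPM in the controls. The libraries are of whole cultures, in which fewer cells in S phase and less histone mRNA per cell cannot be told apart.

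**Figure D4:**
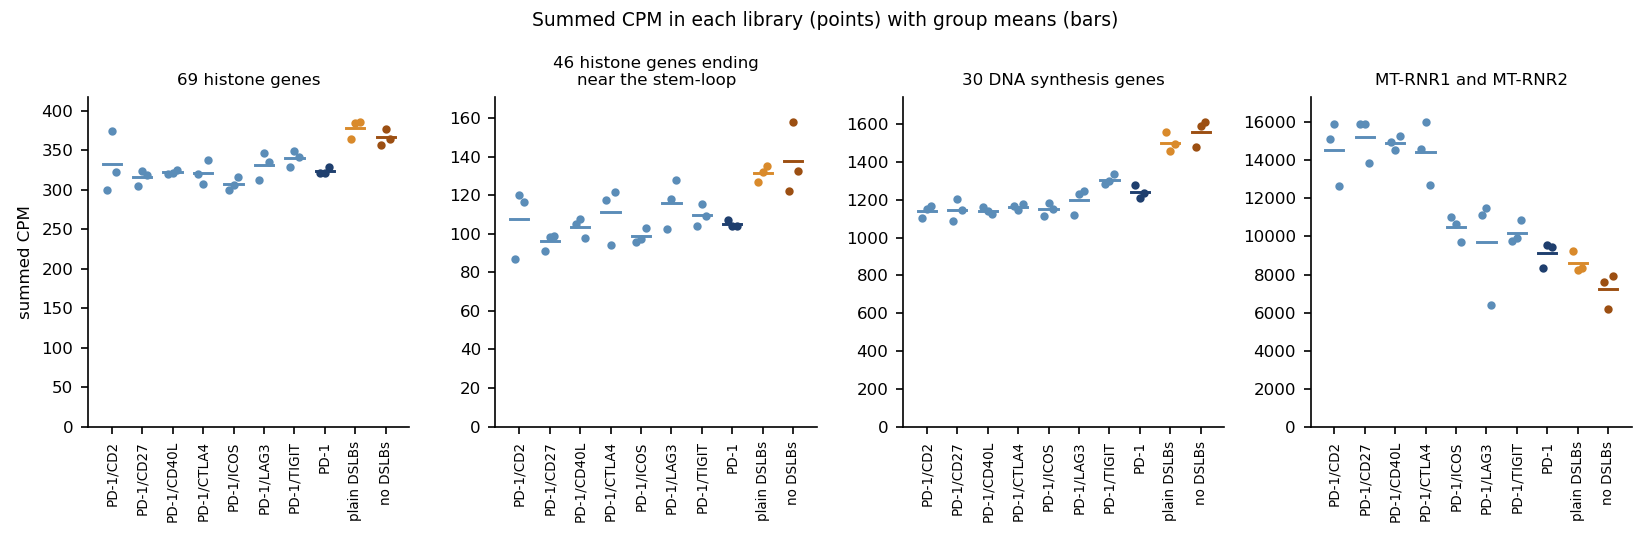
Summed CPM in each library (points) with group means (bars), for the histone genes and the lists named in the panel titles, with the PD-1 groups on the left and both controls on the right. The histone sum lies between 299.7 and 374 CPM in PD-1 libraries and between 357 and 386 CPM in controls, and the S phase genes separate further, at 1090 to 1335 CPM and 1459 to 1613 CPM.

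The lists of other genes that follow are read beside the shares of all genes tested, 10.7% lower and 11.3% higher in PD-1 against plain DSLB, and 24.5% lower and 25.9% higher in the 8 PD-1 groups against both controls. Of 30 tested genes of DNA synthesis and S phase, 18 fell and none rose in PD-1 against plain DSLB (median log2 fold change -0.29), among them the replicative helicase subunit MCM4 (-0.53 ± 0.06), UHRF1 (-0.65 ± 0.08), which keeps DNA methylation through replication, the origin licensing factor CDC6 (-0.59 ± 0.08) and the polymerase subunit POLE (-0.45 ± 0.09). MCM4 had 71.2, 68.9 and 71.0 CPM in the PD-1 libraries, against 105, 99.1 and 101 CPM in the plain ones, without overlap. The count for this list went between 12 and 21 as single libraries were left out. In the 8 PD-1 groups against both controls, 29 of the 30 fell (median -0.38).

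Of 20 genes of G2 and mitosis, 13 fell and 1 rose in PD-1 against plain DSLB (median -0.36), with TOP2A at -0.62 ± 0.09 and the kinetochore gene CENPF at -0.71 ± 0.12. TOP2A, which untangles replicated DNA, had 163, 156 and 168 CPM in the PD-1 libraries, against 262, 235 and 252 CPM in the plain ones. Against both controls, 18 fell and 1 rose in the 8 PD-1 groups.

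A list around transcription of the histone loci was examined next. It also holds general cell cycle regulators, such as CDKN1A, CDKN1B, FOXM1 and MYBL2. Of 18 tested, 7 fell and none rose in PD-1 against plain DSLB (median -0.15), with E2F1 at -0.55 ± 0.09, FOXM1 at -0.69 ± 0.11, CDK2 at -0.37 ± 0.06 and CCNE2 at -0.45 ± 0.11. E2F1, a transcription factor of S phase entry, had 21, 19.1 and 20.3 CPM in the PD-1 libraries, against 31.3, 26.7 and 30.7 CPM in the plain ones. NPAT itself had 36.7, 35.1 and 35.7 CPM with PD-1 DSLBs, against 40.5, 37.9 and 38.7 CPM with plain DSLBs (-0.12 ± 0.12, adjusted p = 0.48), which did not pass although the groups did not overlap. In the 8 PD-1 groups against both controls NPAT was lower (log2 fold change -0.21 ± 0.06, adjusted p = 0.0067), as were 10 others of the 18, and the F test across the 10 groups missed the threshold for it (adjusted p = 0.056).

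The chaperones that carry histones to DNA included 7 lower and no higher genes of 19 in PD-1 against plain DSLB (median -0.19). CHAF1A and CHAF1B, subunits of the chromatin assembly factor that loads H3 and H4 behind the fork, were both at -0.50 (SE 0.12 and 0.09). TONSL and MMS22L, which act together on newly made histones at damaged forks, were at -0.47 ± 0.09 and -0.48 ± 0.09, and NASP, a chaperone of H3 and H4, at -0.30 ± 0.10. Against both controls 16 of the 19 fell and 1 rose in the 8 PD-1 groups.

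Of 19 genes that process histone mRNA 3 fell and none rose in PD-1 against plain DSLB, beside 10.7% and 11.3% of all genes: SRRT (-0.32 ± 0.09), NCBP1 (-0.26 ± 0.07) and CSTF2 (-0.22 ± 0.07), with a median of -0.06 for the list. SLBP had 72.4, 66.8 and 71.2 CPM in the PD-1 libraries, against 60.7, 67.0 and 66.4 CPM in the plain ones, which overlap (0.12 ± 0.07, adjusted p = 0.27), and 0.07 ± 0.04 in the 8 PD-1 groups against both controls (adjusted p = 0.17). Of 18 genes that act in the decay and translation of histone mRNA 3 fell, the helicase UPF1 (-0.24 ± 0.05) and the uridyl transferases TUT7 (-0.30 ± 0.08) and TUT4 (-0.30 ± 0.10), and 2 rose, among them MIF4GD (0.51 ± 0.09), which binds SLBP in translation. Against both controls, in the 8 PD-1 groups, 8 fell and 1 rose of the processing genes, and 5 fell and 3 rose of those of decay and translation, beside 24.5% and 25.9% of all genes.

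**Figure D5:**
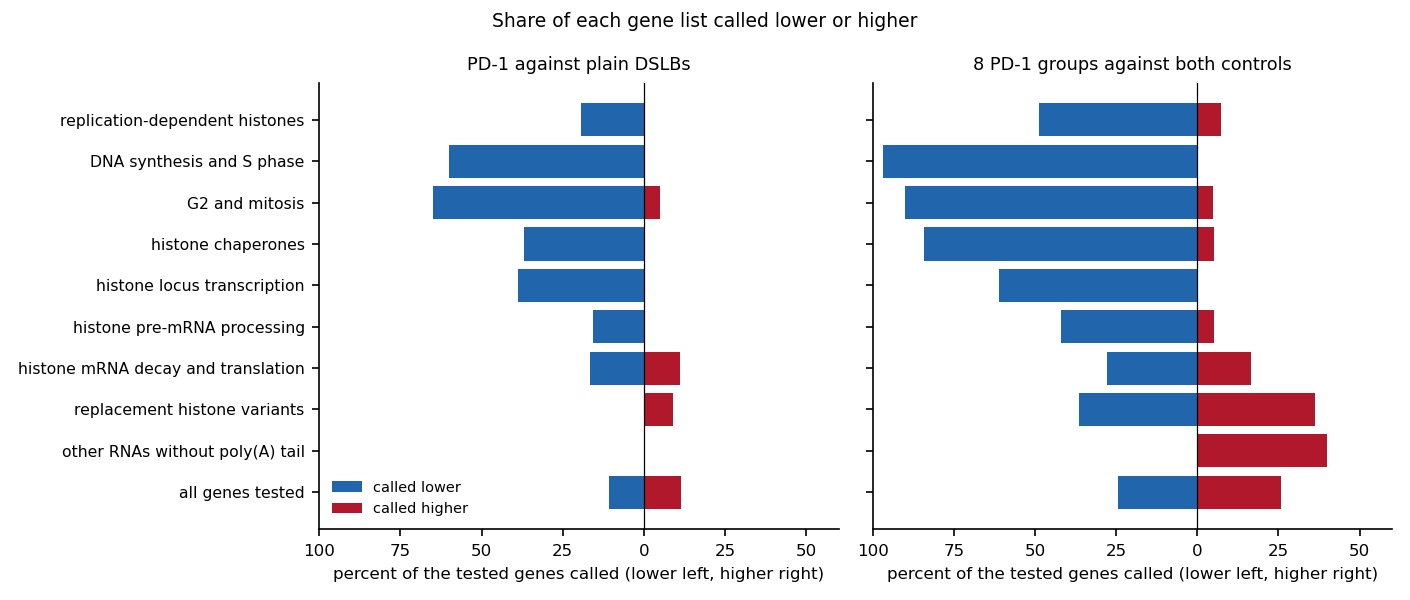
Share of the tested genes of each list called lower (blue, to the left) or higher (red, to the right), in percent, in PD-1 against plain DSLB and in the 8 PD-1 groups against both controls. DNA synthesis has the longest bar to the left in the second panel, with 29 of 30 genes, beside 20 of 41 replication-dependent histone genes.

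The replacement variants served as histones with ordinary mRNAs. Of 11 tested none fell and 1 rose in PD-1 against plain DSLB, the linker histone variant H1-10 at 0.29 ± 0.08 (adjusted p = 0.0095), and the list's median was -0.02. H1-10 had 74.0, 76.2 and 72.6 CPM in the PD-1 libraries, against 62.4, 57.1 and 62.6 CPM in the plain ones, the reverse order of H1-2. In the 8 PD-1 groups against both controls 4 fell and 4 rose: H2AX, the variant marked at DNA breaks, whose gene can yield both a stem-loop and a polyadenylated mRNA, was at -0.42 ± 0.07, the centromeric H3 variant CENPA at -0.32 ± 0.07 and H2AZ2 at -0.13 ± 0.03, while H1-10 was at 0.21 ± 0.05. Their sum was 1391 to 1795 CPM in the PD-1 libraries and 1444 to 1570 CPM in the controls.

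Because most histone mRNAs have no poly(A) tail, RNA selection could also set how many of their reads enter a library, and the selection step is not given in the sources used here. Other RNAs without a tail were therefore read beside them. The signal recognition particle RNAs RN7SL1 and RN7SL2 had medians of 214 and 294 TPM. Several others, such as TERC, RNU2-1, RNU6-1 and SNORD3A, had a median of 0 TPM. Apart from the first pair, no RNA of this list without a tail had a median above 11.15 TPM (RMRP). In PD-1 against plain DSLB none of 10 such RNAs tested was called with edgeR (1 with an unadjusted p under 0.05), and in the 8 PD-1 groups against both controls 4 rose and none fell, SCARNA7 (2.08 ± 0.41), RMRP (2.29 ± 0.54) and RN7SL1 (0.68 ± 0.22) among them. SCARNA7 had at least 0.557 CPM in each of the 12 libraries with CD2, CD27, CD40L or CTLA4, whereas the 12 libraries with ICOS, LAG3, TIGIT or PD-1 alone held 0 to 0.133 CPM and the 6 controls 0.0175 to 0.132 CPM. The summed level of the RNAs without a tail, over the 29 on the list, was 313 to 940 TPM in PD-1 libraries and 292 to 522.5 TPM in controls. By the medians, most of it came from RN7SL1 and RN7SL2.

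The 2 mitochondrial ribosomal RNAs together had 6413 to 16034 CPM in PD-1 libraries and 6206 to 9256 CPM in controls, which overlap. Both were called higher in the 8 PD-1 groups against both controls, and MT-RNR1 but not MT-RNR2 was called higher in PD-1 against plain DSLB (0.53 ± 0.15, adjusted p = 0.010). By group the sum averaged 14566 ± 1711 CPM in PD-1/CD2, 15227 ± 1190 in PD-1/CD27, 14943 ± 359 in PD-1/CD40L, 14445 ± 1681 in PD-1/CTLA4, 10478 ± 669 in PD-1/ICOS, 9691 ± 2844 in PD-1/LAG3, 10173 ± 606 in PD-1/TIGIT and 9113 ± 669 in PD-1, and 8621 ± 553 in plain DSLB and 7245 ± 912 in DSLB-free (SD, n = 3 each). The CD2, CD27, CD40L and CTLA4 groups had the highest sums. The sums of the 3 PD-1 libraries overlapped those of the plain ones. MT-RNR1 alone did not overlap, with 964, 1146 and 1090 CPM in the PD-1 libraries, against 783, 709 and 724 CPM in the plain ones.

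Of the 13 mitochondrial mRNAs, most of which carry short poly(A) tails, 3 fell and none rose in PD-1 against plain DSLB (median -0.68). That count went between 1 and 7 as single libraries were left out. Their sum was 18887, 30547 and 30633 CPM in the PD-1 libraries, against 38118, 38166 and 41573 CPM in the plain ones, as lowest, median and highest. The 24 PD-1 libraries held 11243 to 55786 CPM and the 6 controls 24505 to 41573 CPM, and 1 of the 13 fell in that comparison. Of 2 long noncoding RNAs kept in the nucleus, neither was called in PD-1 against plain DSLB (0 with an unadjusted p under 0.05), and MALAT1 was higher in the 8 PD-1 groups against both controls (0.68 ± 0.12). The part of these RNAs, and that of RNA selection, in the histone values was not tested. Without the 4 libraries that stood apart, 22 of the 41 histone genes were called in the 8 PD-1 groups against both controls, 20 lower and 2 higher, beside 4775 lower and 5006 higher of 18573 genes.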

How the data were processed

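RNA-seq of 30 PANC-1 cultures was read from the deposited RSEM gene tables. The authors mapped trimmed reads (75 nt, single-end) with STAR to hg38, and RSEM gave the abundances. Trim Galore 0.3.3, FastQC 0.11.2 and SAMtools 1.3.1 are also among their processing notes. The kit, NEBNext Ultra II Directional, keeps strand. No source used here gives the annotation release, the RSEM strand setting, or whether RNA was selected by poly(A) tail or by rRNA depletion. The deposited expected counts are the authors' estimates per gene, not normalized, and the deposited TPM values are their length-scaled abundances. Groups came from the sample labels, which name no batch. The methods describe the set of conditions as made in parallel biological replicates. Whether same-numbered libraries belong together is not stated, and the main model did not pair them.

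Expected counts were rounded, filtered by group with filterByExpr, scaled by TMM and tested in edgeR 4.0.16, with group as the only term. Alternatives were DESeq2 1.42.0, RLE factors, no filter, the replicate number as a block, removal of the length trend, limma 3.58.1 on log2(TPM + 0.1), fits to 6 libraries and libraries left out. On counts simulated for PD-1/CD2 against PD-1 with 18424 genes, edgeR recovered 64 of 100 genes changed by 0.5 on the log2 scale and 100 of 100 changed by 1. It also made 8 false calls. The changed genes were drawn only from genes above a cut on mean count. Every gene was given the same spread, and no simulated library stood apart. These rates do not cover histone genes below the cut, such as H2AC13 with a median count of 29.

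Of the histone genes, the text names the 3 of highest median TPM in each family, those passing the test across groups or in a pairwise comparison, and partners at a shared octamer. From the other lists it names up to 3 genes with the smallest p across groups, SLBP, NPAT and up to 4 passing genes per comparison. The histone genes and all lists were chosen with earlier results of these data known. Stem-loops were found in hg38 with GENCODE transcripts.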

Additional observations from a re-analysis of the deposited data

How the results depend on the processing

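Counts of histone genes called in the edgeR model and under its alternatives were as follows. Across the 10 groups 13 genes differed, against 21 without the filter and 20 with limma on log2 TPM, of which 12 were shared with the 13 in each case. Over all genes, 7552 of 18424 differed in edgeR, 8943 of 39960 without the filter and 7270 of 18424 with log2 TPM. For PD-1 against plain DSLB 8 genes were called, against 15 with log2 TPM, and the other alternatives gave 8 to 12. Over all genes, 4054 of 18424 were called in edgeR and 3566 of 18424 with log2 TPM. The other alternatives called from 3850 of 18424 genes, with the length trend removed, to 6138 of 16810, in the edgeR fit to 6 libraries. For the co-ligand comparisons, in which edgeR called none, PD-1/CD27 gave 1 gene with DESeq2 on all libraries, 5 without the filter and 2 each in edgeR and DESeq2 fits to the 6 libraries compared. Over all genes these fits called 783 of 18424, 1290 of 39960, 1037 of 17004 and 1410 of 18424, in that order. PD-1/CTLA4 gave 1 without the filter and 2 without the 4 libraries that stood apart, PD-1/ICOS 2 without the filter and 1 with DESeq2 on 6 libraries, PD-1/LAG3 2 and PD-1/TIGIT 1 without the filter, and plain DSLB against DSLB-free 1 without the filter. Over all genes PD-1/CTLA4 gave 699 of 39960 without the filter and 1198 of 18573 without the 4 libraries. Without the filter, PD-1/ICOS gave 442, PD-1/LAG3 288, PD-1/TIGIT 126 and plain DSLB against DSLB-free 199 of 39960 genes. DESeq2 on 6 libraries called 858 of 18424 genes for PD-1/ICOS. Among the 8 PD-1 groups none was called in edgeR, against 1 with DESeq2, 9 without the filter and 3 without the 4 libraries, beside 530 of 18424, 2413 of 18424, 3622 of 39960 and 3200 of 18573 genes in all. The unfiltered fit tests 66 histone genes in place of 41. The cause of the other differences was not tested.

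Leaving out single libraries gave 0 to 1 genes for PD-1/CD2 against PD-1 (1 without replicate 2 of PD-1/CD2), 0 to 1 for PD-1/CD27 (1 without replicate 3 of PD-1 or replicate 3 of PD-1/LAG3), 11 to 16 across the 10 groups, 7 to 10 for PD-1 against plain DSLB and 16 to 25 for the 8 PD-1 groups against both controls, the lowest without replicate 3 of plain DSLB. No result reversed its direction. Of the 23 genes called in that last comparison 13 kept the call under every alternative.

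With the replicate number as a block, 12 genes differed across the 10 groups, 9 were called in PD-1 against plain DSLB, 23 in the 8 PD-1 groups against both controls and 0 in each other comparison. Same-numbered libraries deviated from their group means with correlations between -0.13 and 0.13, and the numbers were not read as a pairing. Such correlations cannot exclude that same-numbered cultures were made together.

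As a share of summed TPM in place of counts, the histone genes took 0.0731% in PD-1/CD2, 0.0712% in PD-1/CD27, 0.0726% in PD-1/CD40L, 0.0706% in PD-1/CTLA4, 0.0721% in PD-1/ICOS, 0.0728% in PD-1/LAG3, 0.0755% in PD-1/TIGIT, 0.0720% in PD-1, 0.0938% in plain DSLB and 0.0931% in DSLB-free. As a share of counts these were 0.0309% to 0.0339% in the 8 PD-1 groups and 0.0387% in plain DSLB and 0.0382% in DSLB-free. On the TPM scale 7044 of all genes were lower and 2250 higher in the 8 PD-1 groups against both controls, beside 4522 lower and 4769 higher in edgeR.

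The 28 histone genes that did not pass the filter had at most 12.1 counts in any library and were left out of the main test. With 3 libraries a group, the p-values set differences between groups against the spread between replicate cultures of a single line. The main model estimated that spread from all 30 libraries.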

Other observations

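Some genes around the histone pathway, though no replication-dependent histone gene, passed the test between a co-ligand group and PD-1 alone. UPF1 was lower in PD-1/CD2 (log2 fold change -0.29 ± 0.05, SE, adjusted p = 0.011 in edgeR) and in PD-1/CD27 (-0.25 ± 0.05, adjusted p = 0.013). CABIN1 and IPO4, which act with histone chaperones and in histone import, were lower in PD-1/CD2, at -0.32 ± 0.06 (adjusted p = 0.013) and -0.28 ± 0.06 (adjusted p = 0.027). NASP was higher in PD-1/CD27 (0.36 ± 0.10, adjusted p = 0.043). These comparisons share the PD-1 libraries, and the differences between co-ligands were not tested.

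SCARNA7, a small Cajal body RNA without a poly(A) tail, was higher than with PD-1 alone in PD-1/CD2 (3.46 ± 0.40), PD-1/CD27 (3.44 ± 0.40), PD-1/CD40L (3.52 ± 0.41) and PD-1/CTLA4 (3.46 ± 0.40), all log2 fold changes that passed in edgeR, with a level of at most 6.27 TPM in any library. In the PD-1 libraries it had 0.125, 0.0556 and 0.0583 CPM, which are few counts, so the size of the fold is uncertain. MT-RNR1 was higher by 0.91 in PD-1/CD40L, by 0.79 in PD-1/CD27 and by 0.70 in PD-1/CD2. In PD-1/CTLA4 it had 1622, 1989 and 1651 CPM, against 964, 1146 and 1090 CPM with PD-1 alone, also without overlap. No histone gene passed in edgeR in any of these 4 groups, and whether these RNAs bear on the histone values was not tested.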
